A study of Mus musculus with 6 samples.

Results

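The nuclear-encoded subunits of the mitochondrial respiratory chain and ATP synthase were followed at the RNA level in mouse bone marrow-derived dendritic cells grown without and with queuine. The genes were chosen by name: protein-coding genes whose symbols start with Ndufa, Ndufb, Ndufc, Ndufs, Ndufv, Uqcr, Cox4, Cox5, Cox6, Cox7, Cox8 or Atp5, together with Sdha, Sdhb, Sdhc, Sdhd and Cyc1, and without the Ndufaf assembly factors. This rule found 91 genes of the 57132 in the count table, with 40 in complex I, 4 in complex II, 9 in complex III, 19 in complex IV and 19 in complex V. Another 19 noncoding genes and pseudogenes with the same symbol starts were left out, and they held 1.10% as many counts as the 91 genes. Of the 91 genes, 82 had enough counts to be tested: 38, 4, 9, 13 and 18 in complexes I to V.

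The respiratory chain sits in the inner mitochondrial membrane. Complex I takes electrons from NADH and complex II takes them from succinate, ubiquinone carries them to complex III, cytochrome c carries them to complex IV, and complex IV passes them to oxygen. Complexes I, III and IV pump protons, and complex V, the ATP synthase, lets them flow back to make ATP. A few subunits are made inside mitochondria from mitochondrial DNA, and the rest, described here, are encoded in the nucleus and imported as proteins. In dendritic cells, the balance between respiration and glycolysis is known to shift as the cells differentiate and become activated.

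Per the labels, marrow from female C57BL/6 mice, 6 to 8 weeks old, was cultured with GM-CSF at 15 ng/mL and serum that had been dialyzed, fed on days 2 and 4, and collected in TRIzol on day 5. The 0Q group had no queuine added and the 100Q group had queuine at 100 nM; both groups shared all other conditions, and each had 3 libraries. Queuine is the base that cells insert into tRNAs of Tyr, His, Asn and Asp to make queuosine at the wobble position of the anticodon. Cells were plated in triplicate and the labels do not tie the wells to separate animals, so the spread behind each p-value is that between cultures only and may be technical. Whole cultures were sequenced, and fewer cells of a type and less RNA per cell cannot be told apart.

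Total counts were 3675918 to 6755367 in the 0Q libraries and 4484785 to 19386533 in the 100Q libraries, with the highest in 100Q replicate 3. Of the 14 dendritic cell markers, all were tested, and their summed level was 1121 ± 91.0 CPM in 0Q against 1168 ± 75.2 CPM in 100Q (CPM: counts scaled to library size with TMM factors). These sums overlapped, while as a share of all counts the 100Q libraries all lay above those of 0Q. Of the 14 estimates, 10 were above 0 and 4 below, with a median of 0.09 on the log2 scale. Those below 0 were Batf3 (-0.49), Ccr7 (-0.18), Itgae (-0.17) and H2-Ab1 (-0.09). Of the defining dendritic markers, 2 were at low levels, with Flt3 at 1.12 ± 0.748 CPM in 0Q against 3.33 ± 2.11 CPM in 100Q and Zbtb46 at 1.17 ± 0.640 CPM in 0Q against 2.46 ± 1.14 CPM in 100Q, while Itgax, which encodes CD11c, stood at 98.6 ± 26.8 CPM in 0Q against 140.2 ± 14.7 CPM in 100Q with no overlap (unadjusted p = 0.0174, adjusted p = 0.999 with edgeR) and the MHC class II gene H2-Aa stood at 577 ± 91.9 CPM in 0Q against 580.3 ± 76.5 CPM in 100Q. Granulocyte genes took many counts: the 12 neutrophil and precursor markers summed to 20917, 17889.9 and 18225 CPM in the 0Q libraries against 14862, 16213 and 18085 CPM in 100Q, and all 12 estimates were below 0 (median -0.24 on the log2 scale). These sums overlapped between the groups, but as a share of all counts the neutrophil markers took 1.87% ± 0.0764 in 0Q against 1.65% ± 0.155 in 100Q with no overlap. Mast cell and basophil markers summed to 493 ± 29.9 CPM in 0Q against 402 ± 50.1 CPM in 100Q; the groups did not overlap on this scale and overlapped as a share of all counts. The 10 macrophage and monocyte markers summed to 1886 ± 191 CPM in 0Q against 1782 ± 155 CPM in 100Q, with overlap. Markers of B cells, T and NK cells, erythroid cells and stromal cells summed to at most 45.2 CPM on average in either group. The part of these other cells in the values below was not tested.

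No respiratory chain gene passed the test between 100Q and 0Q. With edgeR's quasi-likelihood test and Benjamini-Hochberg adjustment over 10554 genes, 0 of the 82 tested members were called at an adjusted p under 0.05, beside 0 of all genes (0.0%), and the smallest adjusted p of any member was 0.999. DESeq2 and limma-voom also called 0 genes. The unadjusted p was under 0.05 for 309 genes with edgeR, 356 with DESeq2 and 310 with limma-voom. At that level edgeR gave 0 members higher in 100Q and 2 lower, Ndufs1 and Ndufb8, beside 1.77% of all genes higher and 1.16% lower. The 3 libraries of 100Q all lay above those of 0Q for 2 members, beside 4.41% of all genes, and all lay below for 6 members, beside 3.84% of all genes. Abundant genes had more below than above: of the 1328 genes averaging 100 CPM or more, 22 lay above and 74 below. Of the 62 members at that level, 0 lay above and 4 below.

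The members were measured with more precision than most genes. Of the 82, 62 averaged 100 CPM or more and 4 averaged 1000 CPM or more, although 0 were among the 100 most abundant genes. The 95% interval of the fold change stayed between a 1.5-fold decrease and a 1.5-fold increase for 68 of the 82 members (82.9%) and for 62 of the 62 at 100 CPM or more. Among all 10554 genes tested the same held for 1895, and for 89.5% of the 1328 genes that averaged at least 100 CPM.

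The members' estimates leaned slightly below 0. Their median log2 fold change was -0.08, a fold of 0.949, with 20 above 0 and 62 below (75.6%), in a range of -0.49 to 0.47. Over all genes tested the median was 0.00 with 5277 of 10554 below 0, but over the genes at 100 CPM or more it was -0.06 with 67.8% below 0. For the 62 abundant members it was -0.08 with 82.3% below 0. The members' median and that of all abundant genes differed by less than the spread of the members' median between libraries of a group (pooled SD 0.06). The median was -0.05 without 0Q replicate 1, -0.12 without 0Q replicate 2, -0.02 without 0Q replicate 3 and -0.05 without 100Q replicate 2. Scaling by library totals alone gave 32 members above 0 and 50 below.

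**Figure D1:**
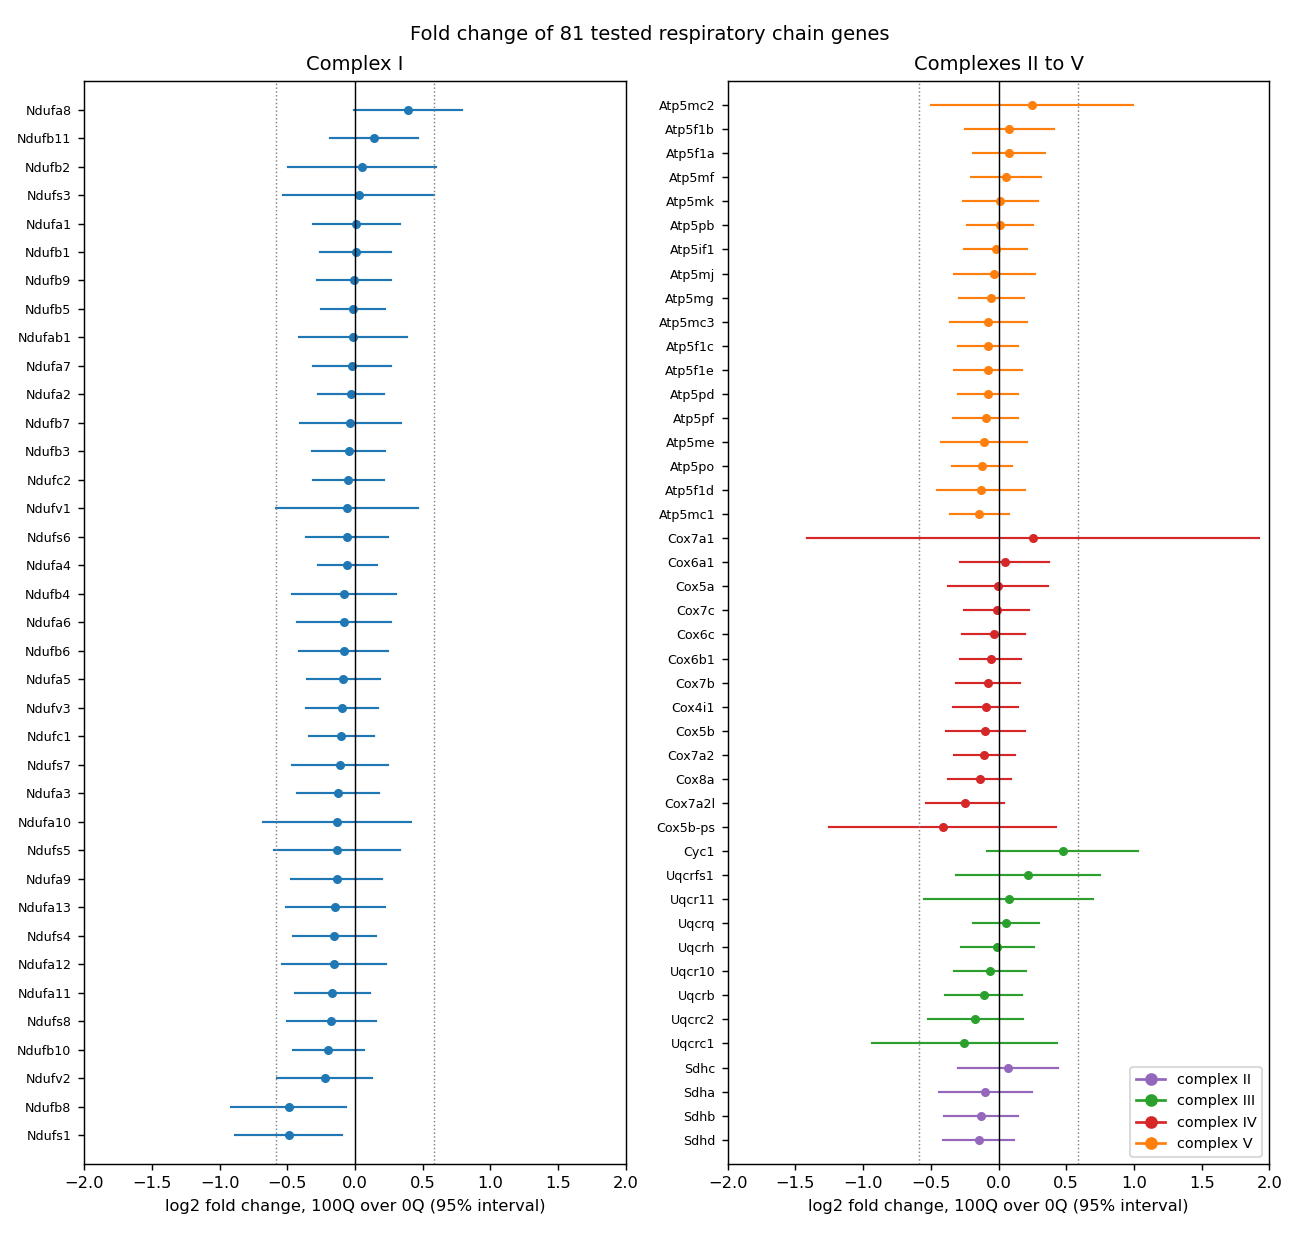
Log2 fold change of 100Q over 0Q (x axis) for 81 of the tested genes, each with its 95% interval from edgeR, complex I on the left and complexes II to V on the right. Dotted lines mark 1.5-fold in either direction. Only the intervals of Ndufs1 and Ndufb8 leave out 0, and the widest interval belongs to Cox7a1, the least abundant tested gene.

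The members' summed level was 25843, 23100.0 and 25944 CPM in the 0Q libraries against 23960.0, 22981 and 24252 CPM in 100Q. The means were 24962 ± 1613 CPM in 0Q against 23731 ± 666 CPM in 100Q (SD, n = 3), so the groups overlapped: 0Q replicate 2 lay below 2 of the 3 libraries of 100Q. As a share of all counts the members took 2.45% ± 0.0781 in 0Q and 2.39% ± 0.0348 in 100Q. The difference was less than the SD of 0Q.

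By complex, the summed level of complex I was 7601, 6957 and 7739 CPM in the 0Q libraries against 7089, 6874 and 7195 CPM in 100Q, and complex V summed to 8866, 8004 and 8925 CPM in the 0Q libraries against 8303, 7971 and 8409 CPM in 100Q. Complex IV summed to 6318, 5532 and 6259 CPM in the 0Q libraries against 5690.1, 5563 and 5788 CPM in 100Q, and complex III to 1799, 1549.6 and 1817 CPM in the 0Q libraries against 1707, 1630.1 and 1719 CPM in 100Q. Complex II summed to 1259, 1058 and 1205 CPM in the 0Q libraries against 1172, 942 and 1142 CPM in 100Q. On this scale, replicate 2 was the lowest library of both groups in each complex, and the groups overlapped. As a share of all counts, replicate 2 was not the lowest in complex I. That share was 0.704%, 0.730% and 0.758% in the 0Q libraries against 0.704%, 0.728% and 0.702% in 100Q. In summed CPM, the lowest of all libraries was 100Q replicate 2 in complexes I, II and V and 0Q replicate 2 in complexes III and IV.

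**Figure D2:**
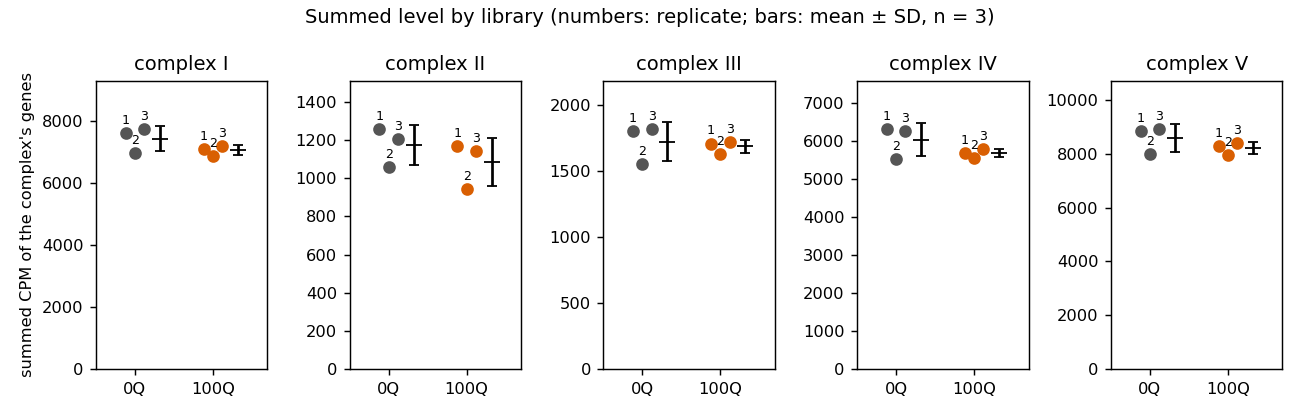
Summed CPM (y axis, starting at 0) of the genes of each complex in the 0Q and 100Q libraries, with replicate numbers at the points and bars for mean ± SD of 3 libraries. The groups overlap in each of the 5 panels, and the 0Q points spread more than the 100Q points in complexes I, III, IV and V.

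The 5 complexes had median log2 fold changes of -0.08 (complex I, 7 genes above 0 and 31 below), -0.11 (complex II, 1 and 3), -0.01 (complex III, 4 and 5), -0.08 (complex IV, 2 and 11) and -0.06 (complex V, 6 and 12). Complexes II and III, the farthest apart, differed by less than the pooled SD of complex II's library medians (0.17), and that SD was 0.05 to 0.08 in the other 4 complexes. The median of complex III had no stable sign: it was 0.03 with library totals alone, with limma-voom and with length trends removed, and 0.01 with no filter and with the filter at 10 CPM. It was also above 0 without 0Q replicate 1, without 0Q replicate 3 (0.02) and without 100Q replicate 2. For complex II the median was -0.03 without 0Q replicate 1 and -0.01 without 100Q replicate 2.

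Differences between single libraries were as large as those between groups. Taking each gene's deviation from its mean over the 6 libraries on the log2(CPM + 1) scale, the median deviation of the members was 0.07 in 0Q replicate 1, -0.06 in 0Q replicate 2 and 0.09 in 0Q replicate 3. The 100Q libraries stood at -0.02, -0.06 and 0.00. Thus 63 of the 82 members were above their own mean in each of 0Q replicates 1 and 3, against 22 in 0Q replicate 2. The shift ran through all 5 complexes in 0Q replicates 1 and 2, upwards in the first and downwards in the other. These deviations are on the TMM scale, and the order of libraries differed as a share of all counts. There the members took 2.39%, 2.42% and 2.54% in the 0Q libraries against 2.38%, 2.43% and 2.37% in 100Q.

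The trend of deviation with transcript length also differed between libraries. Members are short, with a median canonical transcript of 1090 bases against 3394 over all genes tested with a coding sequence, and across 6097 genes the Spearman correlation of deviation with transcript length was -0.28, 0.21 and -0.06 in the 0Q libraries and 0.10, 0.19 and -0.05 in the 100Q libraries. The trend did not follow the members' shift in every library. Replicate 3 had correlations of -0.06 in 0Q and -0.05 in 100Q, while the members' median deviations there were 0.09 and 0.00. With each library's length trend removed, the members' median log2 fold change was -0.02, with 34 above 0 and 48 below. The complexes then stood at -0.03, -0.11, 0.03, -0.01 and -0.01 from I to V. The source of the length trends was not tested.

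**Figure D3:**
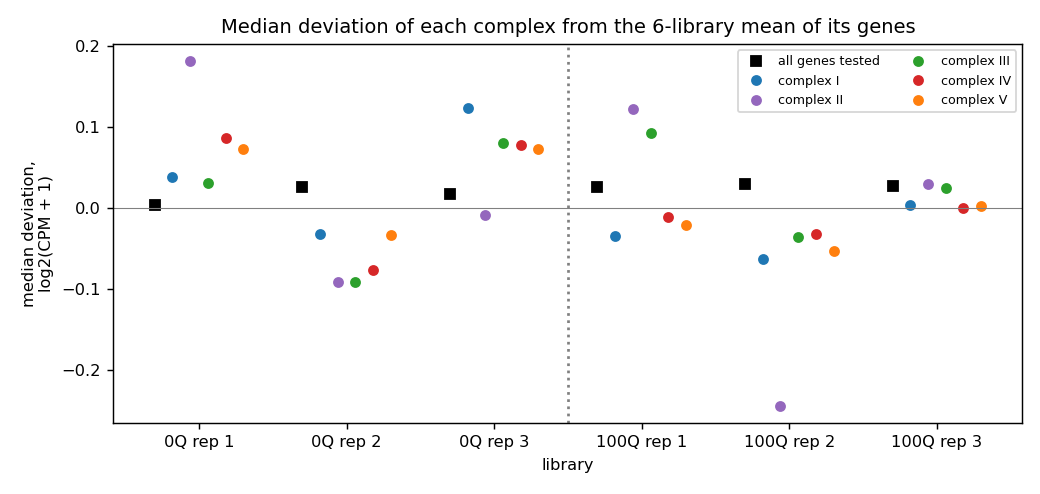
Median deviation of each complex (coloured points) and of all genes tested (black squares) from the 6-library mean of its genes, in log2(CPM + 1), for each library on the x axis. In 0Q replicate 2 and 100Q replicate 2 all 5 complexes lie below 0, and in 0Q replicate 1 all 5 lie above 0.

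Complex I receives electrons in its matrix arm. Ndufs1, the largest iron-sulfur subunit of that arm, had the smallest p of all members. Its level was 110.5, 86.3 and 101 CPM in the 0Q libraries against 81.0, 57.5 and 73.1 CPM in 100Q. The groups did not overlap, with a log2 fold change of -0.49 (SE 0.19), a 95% interval of -0.88 to -0.10, an unadjusted p = 0.0178 and an adjusted p = 0.999 with edgeR. The unadjusted p was 0.0596 without 0Q replicate 1 and 0.0788 without 100Q replicate 2. Ndufs1 (ENSMUSG00000025968.17, GRCm39 chromosome 1, 63182058 to 63216236, - strand) overlaps Eef1b2 on the other strand, and Eef1b2 and a further overlapping gene held 845% as many counts. Eef1b2, which encodes a translation elongation factor subunit, was at 719.9 ± 91.2 CPM in 0Q against 627 ± 86.6 CPM in 100Q, and its log2 fold change was -0.20 (SE 0.13). Without knowledge of strand, reads of the overlap cannot be told apart.

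Further core subunits of the matrix arm stayed within their spread. Ndufv1, which binds NADH and the flavin, was at 30.9 ± 2.82 CPM in 0Q against 29.8 ± 1.54 CPM in 100Q, and Ndufv2, its iron-sulfur partner, at 175 ± 26.3 CPM in 0Q against 149.9 ± 27.7 CPM in 100Q with a log2 fold change of -0.22 (SE 0.17). Ndufs3, Ndufs7 and Ndufs8 belong to the part where ubiquinone is reduced. Their levels in 0Q and 100Q were 33.8 ± 2.16 and 34.3 ± 9.84 CPM for Ndufs3, 119.9 ± 12.9 and 111 ± 17.1 CPM for Ndufs7 and 204 ± 33.1 and 180.0 ± 26.2 CPM for Ndufs8. Their log2 fold changes were 0.03, -0.11 and -0.17, and none passed the test.

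Accessory subunits surround this core. Ndufb8, an accessory subunit of the membrane arm, was at 70.4, 58.9 and 79.7 CPM in the 0Q libraries against 50.2, 55.2 and 43.8 CPM in 100Q. All 3 libraries of 100Q lay below those of 0Q, with a log2 fold change of -0.49 (SE 0.20) and an unadjusted p = 0.0267, adjusted p = 0.999 with edgeR. Its unadjusted p was 0.108 without 0Q replicate 3, 0.0536 without 100Q replicate 1, 0.112 without 100Q replicate 3 and 0.0532 with length trends removed. Ndufb8 (ENSMUSG00000025204.11) lies at GRCm39 chromosome 19, 44537011 to 44543939, - strand. Ndufa11, a further membrane arm subunit, was at 198, 190.1 and 187 CPM in the 0Q libraries against 170.0, 171 and 171 CPM in 100Q, so its groups did not overlap although the log2 fold change was -0.17 (SE 0.13).

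Ndufa8, an accessory subunit with cysteine pairs that is folded in the intermembrane space, had the smallest p among members with a positive estimate. It was at 58.5, 71.2 and 79.4 CPM in the 0Q libraries against 108, 84.9 and 81.5 CPM in 100Q. The groups did not overlap, with a log2 fold change of 0.39 (SE 0.19), an unadjusted p = 0.0559 and an adjusted p = 0.999 with edgeR. The estimate was 0.25 without 100Q replicate 1, which held the highest value, and 0.49 without 0Q replicate 3 (unadjusted p = 0.0368). The unadjusted p was also under 0.05, from 0.0336 to 0.0470, with library totals alone, no filter, the filter at 10 CPM, thinning of 100Q replicate 3 and length trends removed. Ndufa8 (ENSMUSG00000026895.8) lies at GRCm39 chromosome 2, 35917572 to 35939425, - strand. Ndufa4, listed with complex I by its name and found in complex IV by later work, was at 1078 ± 79.1 CPM in 0Q against 1036 ± 9.56 CPM in 100Q. With Ndufa4 and its homolog Ndufa4l2 moved to complex IV, the medians of complexes I and IV were -0.08 and -0.07. The small subunits Ndufa2, Ndufb10 and Ndufc2, which had the highest levels per length of complex I with the union of exons as length, were at 379.6 ± 6.14 and 372 ± 20.4 CPM, 359.7 ± 33.5 and 314 ± 19.3 CPM and 245 ± 6.40 and 237 ± 10.1 CPM in 0Q and 100Q. Ndufa10, with the lowest, was at 34.0 ± 4.10 and 31.2 ± 6.82 CPM.

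Complex II, succinate dehydrogenase, also works in the tricarboxylic acid cycle and is the only complex with all subunits encoded in the nucleus. Sdha, the flavoprotein that oxidizes succinate, was at 204, 176 and 149 CPM in the 0Q libraries against 192, 134 and 167 CPM in 100Q. Sdhb, the iron-sulfur subunit, was at 534, 428 and 527 CPM in the 0Q libraries against 491, 387 and 483 CPM in 100Q. Sdhc and Sdhd, which anchor the complex in the membrane, were at 98.8 ± 13.9 CPM in 0Q against 104 ± 14.2 CPM in 100Q for Sdhc and 403 ± 40.5 CPM in 0Q against 364 ± 29.2 CPM in 100Q for Sdhd. In Sdha and Sdhb 100Q replicate 2 had the lowest value of all 6 libraries. The log2 fold changes were -0.10 (SE 0.16) for Sdha, -0.13 (SE 0.13) for Sdhb, 0.07 (SE 0.17) for Sdhc and -0.15 (SE 0.12) for Sdhd, and all 4 intervals lay within 1.5-fold. Sdhd overlaps Timm8b, a mitochondrial import gene, on the other strand.

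Complex III passes electrons from ubiquinol to cytochrome c. Cyc1, the cytochrome that hands them on, had the highest estimate of all members. It was at 24.4, 31.7 and 28.6 CPM in the 0Q libraries against 35.9, 51.6 and 30.8 CPM in 100Q, and the groups overlapped because 100Q replicate 3 lay below 0Q replicate 2. The log2 fold change was 0.47 (SE 0.27), with an unadjusted p = 0.0920 and an adjusted p = 0.999 with edgeR. Without 100Q replicate 2, the highest library, the estimate was 0.23. Cyc1 (ENSMUSG00000022551.9) lies at GRCm39 chromosome 15, 76227204 to 76230462, + strand.

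Uqcrfs1, the Rieske iron-sulfur protein, was at 30.7 ± 4.08 CPM in 0Q against 35.8 ± 6.40 CPM in 100Q, and its log2 fold change was 0.22 (SE 0.25). The core proteins Uqcrc1 and Uqcrc2 were at 27.2 ± 8.61 CPM in 0Q against 22.7 ± 7.48 CPM in 100Q for Uqcrc1 and 203 ± 44.1 CPM in 0Q against 179.6 ± 22.4 CPM in 100Q for Uqcrc2. Uqcrb, Uqcrq and Uqcrh are small subunits and had the highest levels per length of the complex with the union of exons as length; with the canonical transcript Uqcr10 was the highest. They were at 363 ± 45.6 and 336 ± 41.9 CPM, 439 ± 16.8 and 455 ± 32.7 CPM and 294 ± 30.5 and 292 ± 17.7 CPM in 0Q and 100Q. Intervals lay within 1.5-fold for 5 of the 9 genes of complex III, the lowest share of the 5 complexes, and 4 of its genes, Cyc1, Uqcrfs1, Uqcrc1 and Uqcr11, averaged under 40 CPM in each group.

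Complex IV, cytochrome c oxidase, reduces oxygen; its catalytic core is encoded in mitochondrial DNA and its nuclear subunits surround that core. Cox4i1, the largest of them, was at 839, 676 and 686 CPM in the 0Q libraries against 668, 679 and 712 CPM in 100Q. Cox5a and Cox5b had log2 fold changes of -0.01 (SE 0.18) and -0.10 (SE 0.14). Cox8a, a small membrane subunit, was at 652, 586 and 623 CPM in the 0Q libraries against 527, 582 and 579 CPM in 100Q, with all 100Q libraries below those of 0Q and a log2 fold change of -0.14 (SE 0.11). Cox6b1, which lies on the intermembrane side, was at 1146 ± 119 CPM in 0Q against 1101 ± 11.9 CPM in 100Q.

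Cox7a2l, known for a part in supercomplexes of complexes III and IV, had the smallest p of complex IV. Whether it has that part in cells of this strain was not tested. It was at 489, 373 and 423 CPM in the 0Q libraries against 390.5, 305 and 387 CPM in 100Q, and the groups overlapped. The log2 fold change was -0.25 (SE 0.14), with an unadjusted p = 0.0891 and an adjusted p = 0.999 with edgeR. The estimate was -0.14 without 0Q replicate 1 and -0.15 without 100Q replicate 2. Cox5b-ps, annotated as protein-coding, is a retrocopy of Cox5b and was at 15.8 ± 2.87 CPM in 0Q against 11.9 ± 5.43 CPM in 100Q; its reads may be shared with Cox5b, and both values are uncertain.

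Several subunits of complex IV have a second gene used in particular tissues such as heart, muscle, lung or testis. Counts fell mainly on the widely expressed form in each family. Cox4i2 had 3 counts, all in 100Q replicate 3. Cox6a2 and Cox6b2 were at 1.19 ± 0.856 and 0.630 ± 0.663 CPM and 1.18 ± 0.900 and 0.887 ± 0.540 CPM in 0Q and 100Q, beside 109 ± 8.79 and 112 ± 7.64 CPM for Cox6a1. Cox7b2, Cox8b and Cox8c had 0 counts in all 6 libraries, as did Ndufa4l2, Ndufb11b and a second entry for Atp5po. A count of 0 allows up to 3 counts, or 0.155 CPM at the greatest depth and 0.816 CPM at the least; this covers counting error only.

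Cox7a1, the muscle and heart form, was the only second form of complex IV that was tested. It was at 2.08, 2.12 and 2.22 CPM in the 0Q libraries against 2.47, 2.95 and 2.27 CPM in 100Q. All 100Q libraries lay above those of 0Q, but the log2 fold change was 0.25 (SE 0.79) and rested on 8 to 43 counts a library. The levels per length, which allow genes to be compared, were 8.91 for Cox7a1, 403 for Cox7a2 and 81.7 for Cox7a2l with the union of exons as length, and 7.33, 1762 and 429 with the canonical transcript. The size of the gap depended on the length, and the order did not.

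**Figure D4:**
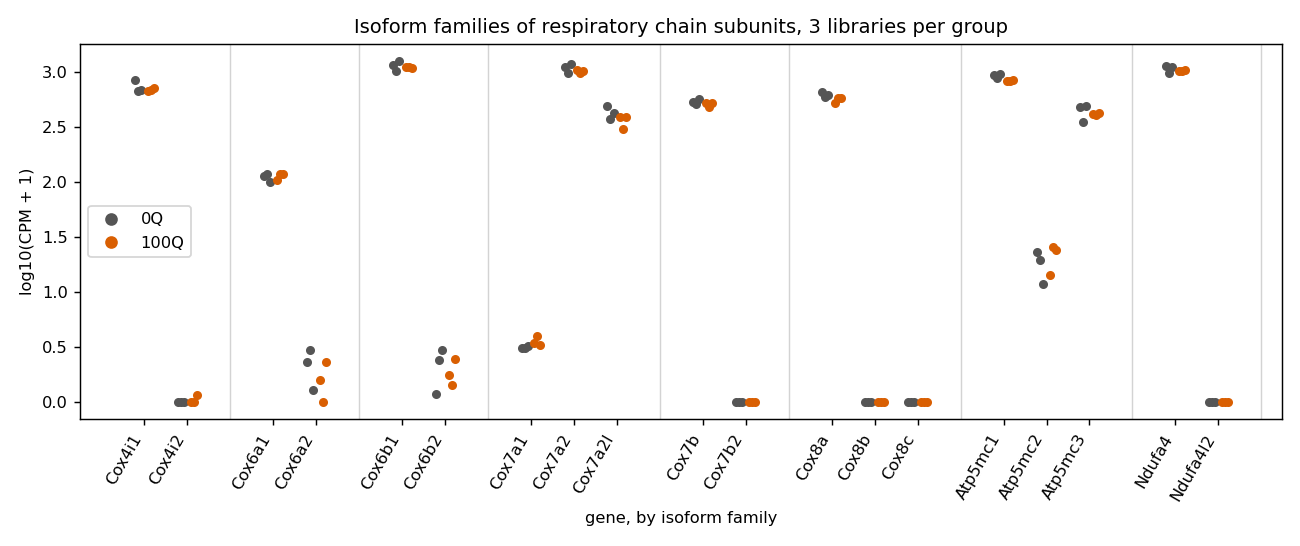
Level of each gene of 8 isoform families as log10(CPM + 1) in the 3 libraries of 0Q (grey) and of 100Q (orange). Cox4i1, Cox6a1, Cox6b1, Cox7b, Cox8a and Ndufa4 lie near or above 2 on this scale while their second forms lie near 0, and Atp5mc2 lies below Atp5mc1 and Atp5mc3 in each library.

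Complex V has a catalytic head, a central stalk, a peripheral stalk and a rotating ring in the membrane. The head is built from Atp5f1a and Atp5f1b, the latter holding the catalytic sites. Atp5f1a was at 235, 251 and 245 CPM in the 0Q libraries against 275, 266 and 232 CPM in 100Q, and Atp5f1b at 143, 192 and 189 CPM in the 0Q libraries against 199, 198 and 157 CPM in 100Q. Both estimates were slightly positive, 0.08 (SE 0.13) for Atp5f1a and 0.08 (SE 0.16) for Atp5f1b, and the groups overlapped. Atp5f1c, the turning shaft of the central stalk and the member with the highest mean CPM, was at 1203, 1141 and 1211 CPM in the 0Q libraries against 1095, 1042 and 1230.1 CPM in 100Q. Atp5if1, which blocks the enzyme from running backwards, was at 564 ± 33.7 CPM in 0Q against 556 ± 3.94 CPM in 100Q.

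In the peripheral stalk, Atp5po connects the stalk to the head. It was at 956, 869 and 903 CPM in the 0Q libraries against 858, 795 and 853 CPM in 100Q, with all 100Q libraries below those of 0Q and a log2 fold change of -0.12 (SE 0.10). Atp5pd, a further stalk subunit, was at 780.5 ± 31.6 CPM in 0Q against 738 ± 28.9 CPM in 100Q. Atp5f1e, at the foot of the central stalk, was at 583 ± 70.9 CPM in 0Q against 551 ± 27.8 CPM in 100Q.

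The ring is made of subunit c, encoded by 3 genes, Atp5mc1, Atp5mc2 and Atp5mc3, whose products differ in the import signal and carry the same mature protein. The ends of their coding sequences (GENCODE, GRCm39), which hold the mature protein, are shown because they show how far the 3 transcripts can be told apart by reads; capitals mark the 58 of 228 positions at which the 3 differ.
Atp5mc1: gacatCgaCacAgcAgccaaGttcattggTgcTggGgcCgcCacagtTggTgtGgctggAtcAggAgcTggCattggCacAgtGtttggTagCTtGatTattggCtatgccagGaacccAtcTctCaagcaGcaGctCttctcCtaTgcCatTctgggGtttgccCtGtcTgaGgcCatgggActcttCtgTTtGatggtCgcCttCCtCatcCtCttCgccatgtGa
Atp5mc2: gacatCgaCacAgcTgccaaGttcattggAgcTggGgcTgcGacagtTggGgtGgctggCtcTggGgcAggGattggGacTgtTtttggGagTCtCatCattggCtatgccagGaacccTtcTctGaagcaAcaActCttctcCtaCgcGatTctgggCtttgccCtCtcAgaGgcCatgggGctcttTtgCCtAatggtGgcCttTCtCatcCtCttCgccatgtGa
Atp5mc3: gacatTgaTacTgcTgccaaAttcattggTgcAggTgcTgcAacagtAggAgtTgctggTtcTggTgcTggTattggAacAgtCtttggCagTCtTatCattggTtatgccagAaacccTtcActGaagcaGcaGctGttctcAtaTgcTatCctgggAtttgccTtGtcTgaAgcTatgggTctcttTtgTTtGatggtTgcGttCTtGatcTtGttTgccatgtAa
Over these bases Atp5mc1 and Atp5mc2 were identical at 85.1% of positions, Atp5mc1 and Atp5mc3 at 79.8%, and Atp5mc2 and Atp5mc3 at 78.5%. The longest identical run of any pair was 21 bases, in Atp5mc1 and Atp5mc2. The proteins differ in length, with 136, 146 and 141 residues, and the last 78 residues were identical in all pairs.

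Of the 3 genes, Atp5mc1 (chromosome 11) was at 931, 877 and 966 CPM in the 0Q libraries against 829.8, 829 and 852 CPM in 100Q. The 100Q libraries all lay below those of 0Q, with a log2 fold change of -0.14 (SE 0.10) and an unadjusted p = 0.181, adjusted p = 0.999 with edgeR. Atp5mc3 (chromosome 2) was at 482, 347 and 490.0 CPM in the 0Q libraries against 417, 407 and 427 CPM in 100Q, and Atp5mc2 (chromosome 15) at 21.9, 18.5 and 10.8 CPM in the 0Q libraries against 13.3, 24.4 and 23.3 CPM in 100Q. Atp5mc2 had an estimate of 0.25 (SE 0.35) and its groups overlapped. Per length, the order was Atp5mc3 at 368, Atp5mc1 at 333 and Atp5mc2 at 6.53 with the union of exons, but Atp5mc1 at 1968, Atp5mc3 at 591 and Atp5mc2 at 35.1 with the canonical transcript. Atp5mc2 was the lowest of complex V with both lengths, and the order of the other two depended on the length used.

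Within a complex, subunits are present in fixed numbers, but their transcripts were not at one level. Where a subunit has several genes, as with Cox7a1 and Atp5mc2, fixed numbers do not apply to each gene. Levels per length are CPM per kilobase, scaled to the same total over the genes tested in each library as TPM would be, with the union of all annotated exons as the length. In complex I they ran from 6.38 for Ndufa10 to 1388 for Ndufa2, followed by Ndufb10 at 626 and Ndufc2 at 613. In complex II they ran from 46.5 for Sdha to 340.4 for Sdhd, with Sdhb at 129. In complex III they ran from 9.92 for Uqcrc1 to 853 for Uqcrb, followed by Uqcrq at 392 and Uqcrh at 311. With this length, the highest in these 3 complexes were the accessory subunits Ndufa2 and Uqcrb and the membrane anchor Sdhd.

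In complex IV levels per length ran from 8.91 for Cox7a1 to 1507 for Cox8a, followed by Cox6b1 at 1149 and Cox4i1 at 513. In complex V they ran from 6.53 for Atp5mc2 to 468 for Atp5pd, followed by Atp5f1e at 423 and Atp5if1 at 417. The median level per length was 90.2 in complex I, 93.1 in complex II, 87.0 in complex III, 194 in complex IV and 247 in complex V. These medians cover tested genes only: 38 of 40 in complex I, 13 of 19 in complex IV and 18 of 19 in complex V. Among tested genes, complexes IV and V were thus above the other 3 at the RNA level. The union of exons is long for some members, 9416 bases against 503 for the canonical transcript of Cox6c and 8652 against 529 for Ndufa4. With canonical lengths the medians were 178, 118, 112, 706 and 437 from complex I to V, and the highest members became Ndufa4 at 2731, Sdhd at 416, Uqcr10 at 941, Cox6b1 at 2334 and Atp5mc1 at 1968. Among tested genes, complexes IV and V were above the other 3 with both lengths, while the order of IV and V changed. The untested genes of complex IV averaged 1.03 CPM or less. Counting them would lower its median, so its place holds for tested genes only.

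**Figure D5:**
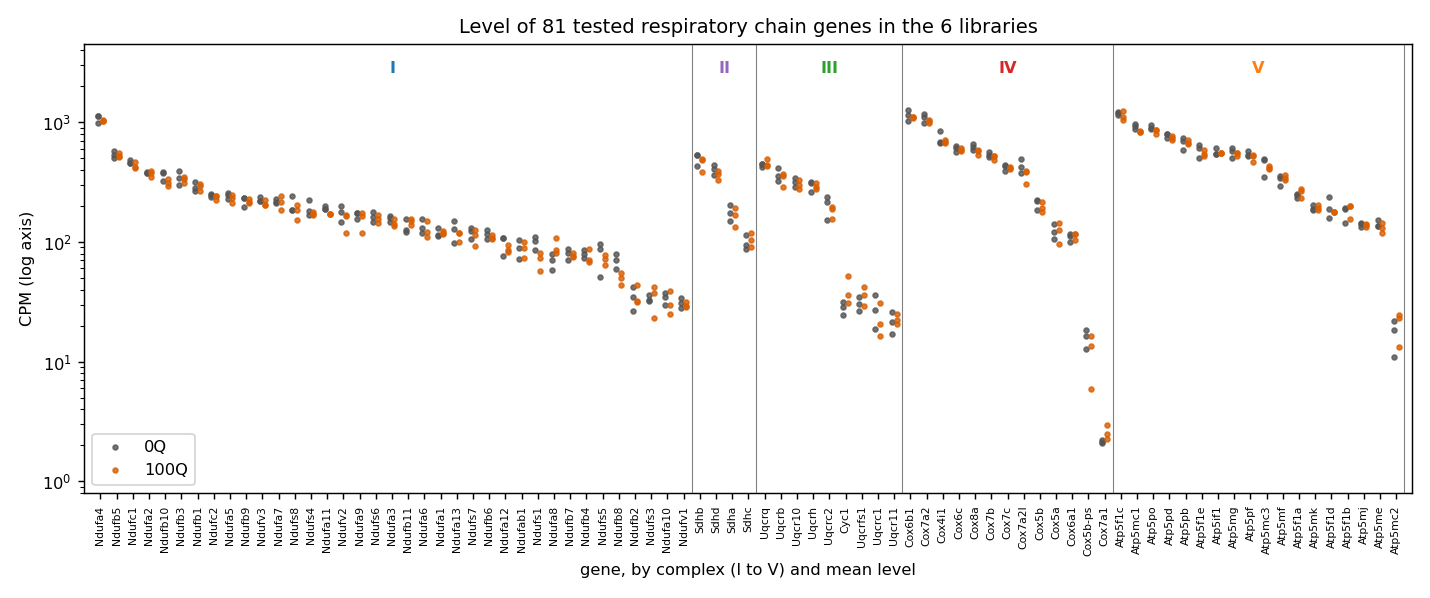
CPM (log axis) of 81 of the tested genes in the 3 libraries of 0Q (grey) and of 100Q (orange), by complex and sorted by mean level. CPM is not scaled by length, so it shows how the libraries of one gene spread and not the order of genes per length; the members range from Cox7a1 at 2 to 3 CPM to Atp5f1c above 1000 CPM.

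The codons read by queuosine tRNAs end in U or C, as NAU and NAC, for Asn, Asp, His and Tyr. In the 82 members these 4 residues made up 13.8% of codons at the median, beside 13.9% in 9519 genes tested with a coding sequence. The share of NAU among NAU and NAC codons was 44.0% at the median of the members and 43.6% at the median of all genes. Pooled over codons it was 46.9%, 44.0%, 46.6%, 40.2% and 49.2% in complexes I to V and 46.2% in all genes. Complex IV used NAC codons more than the others, and complex V the least.

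A pair of short coding sequences shows the contrast: of the members at 100 CPM or more with coding sequences up to 300 bases and at least 5 such codons, Cox6b1 had the lowest NAU share and Cox6c the highest. Among less abundant members, Cox7a1 was lower, at 8.33%, and Uqcr11 had the same share as Cox6b1. Cox6b1 and Cox6c are both subunits of complex IV (GENCODE coding sequences, GRCm39). NAU and NAC codons are in capitals, written with T for U.
Cox6b1: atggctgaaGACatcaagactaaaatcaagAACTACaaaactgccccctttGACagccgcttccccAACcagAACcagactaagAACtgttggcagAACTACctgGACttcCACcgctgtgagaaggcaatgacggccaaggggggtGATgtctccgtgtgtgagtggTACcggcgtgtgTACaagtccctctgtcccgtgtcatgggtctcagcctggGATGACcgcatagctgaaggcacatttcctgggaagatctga
Cox6c: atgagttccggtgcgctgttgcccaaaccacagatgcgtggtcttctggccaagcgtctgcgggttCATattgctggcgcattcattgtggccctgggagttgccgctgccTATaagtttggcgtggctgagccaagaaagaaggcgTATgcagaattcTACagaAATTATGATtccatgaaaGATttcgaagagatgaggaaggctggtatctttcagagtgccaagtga
Cox6b1 (chromosome 7) held 2 NAU and 14 NAC codons, a NAU share of 12.5%, and Cox6c (chromosome 15) held 7 NAU and 1 NAC codons, a share of 87.5%. Cox6b1 was at 1159, 1020.3 and 1258 CPM in the 0Q libraries against 1114, 1099 and 1090.4 CPM in 100Q, and its log2 fold change was -0.06 (SE 0.11). Cox6c was at 612, 563 and 631 CPM in the 0Q libraries against 609, 571 and 581 CPM in 100Q, and its log2 fold change was -0.04 (SE 0.11). These 2 estimates differed by less than their SEs. Over 81 members with at least 5 NAU and NAC codons, the median estimate was -0.06 for the 41 with the higher NAU shares and -0.10 for the 40 with the lower shares, and Spearman's rho across members was 0.07. Genes of one library share its depth and are not independent replicates. RNA levels do not measure how codons were read.

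Promoters of respiratory genes are known for sites of NRF1, GABPA and YY1. RefSeq promoters (GRCm38.p6, 250 bases before to 50 after the start) were matched by gene identifier or symbol for 56 of the 91 members. A gene was counted if any of its promoters held the motif. The NRF1 motif GCGCATGCG, searched on both strands, was in 5 of the 56 (8.93%), namely Cox6a1, Ndufa11, Ndufa8, Uqcr11 and Uqcrc1, beside 1.95% of 27025 genes with a promoter. The GABPA motif CCGGAAGTG was in 2 (3.57%, beside 2.25%), Ndufs3 and Uqcrh, and the YY1 motif AAGATGGCG in 5 (8.93%, beside 1.64%), Ndufa9, Ndufc1, Ndufs4, Ndufs6 and Ndufs7. Any of the 3 was in 21.4% of these 56 members and 5.55% of all genes with a promoter. The 27025 genes were not limited to those tested here, so the shares do not compare like sets. The YY1 letters can also cover a start codon, as in Ndufc1. The NRF1 motif is nearly its own reverse complement, so a site can match on both strands.

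The NRF1 matches of Ndufa8 and Ndufa11, whose groups did not overlap, the first with 100Q higher and the second with 100Q lower, are shown with that of Cox6a1, with the motif or its reverse complement in capitals. They lie at chr2:36049329-36049357 on the minus strand, chr17:56717692-56717720 on the plus strand and chr5:115349102-115349130 on the minus strand (GRCm38.p6).
Ndufa8: tcgctggagaCGCATGCGCagatggtacc
Ndufa11: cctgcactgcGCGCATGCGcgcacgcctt
Cox6a1: caggaacgggGCGCATGCGcgctctcgct
The log2 fold changes of these genes were 0.39, -0.17 and 0.04, so the estimates of genes with this match had both signs. Over the 5 members with the match the median was 0.04, and over the tested members with a promoter and no match it was -0.08. A match is only a match of letters.

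Other genes of the pathway also gave 0 calls. Of 51 assembly factors, which build the complexes, 49 were tested, 0 were called with edgeR, 23 estimates were above 0 and 26 below, and the median was -0.06. In 4 of them, Ndufaf8, Lyrm7, Surf1 and Cox16, all 100Q libraries lay below those of 0Q, beside 3.84% of all genes, and none had an unadjusted p under 0.05. Of 12 genes for cytochrome c and ubiquinone synthesis, 10 were tested and 0 were called, with a median of -0.08. Cycs, which encodes the cytochrome c that links complexes III and IV, was at 152 ± 7.61 CPM in 0Q against 148 ± 10.4 CPM in 100Q.

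The mitochondrially encoded partners showed no lean below 0. All 13 were tested, 0 were called, and 8 estimates were above 0 and 5 below, with a median of 0.06. Their summed level was 30308, 30154 and 29728 CPM in the 0Q libraries against 28186, 29972 and 31365 CPM in 100Q. The groups overlapped, and the 100Q libraries held both the lowest and the highest sum.

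Of 15 transcriptional regulators of these genes, 13 were tested and 0 were called with edgeR, with 8 above 0, 5 below and a median of 0.27. Tfam, which packages mitochondrial DNA and acts in its transcription, was at 6.23, 11.4 and 6.39 CPM in the 0Q libraries against 15.0, 20.4 and 10.7 CPM in 100Q, and the groups overlapped. Its log2 fold change was 0.91 (SE 0.41) with an unadjusted p = 0.0406, adjusted p = 0.999 with edgeR. Hif1a, the oxygen-sensitive factor that favours glycolysis, was at 15.9, 25.5 and 18.1 CPM in the 0Q libraries against 29.1, 33.5 and 30.5 CPM in 100Q, and its log2 fold change was 0.64 (SE 0.29) with an unadjusted p = 0.0385, adjusted p = 0.999 with edgeR. Nrf1, Gabpa and Yy1 had log2 fold changes of -0.10, -0.33 and -0.09.

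Single values can also depend on neighbouring genes and copies. Of the 91 members, 49 overlap another gene that had counts and 52 overlap a gene on the other strand, and 58 had a count that was not whole in at least 1 library because ambiguous reads were divided between genes.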

How the data were processed

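The authors deposited expected counts per gene for the 6 libraries in 1 table, made with FastQC, STAR and RSEM on mm39 (GRCm39) per the submitters' processing notes; versions, annotation release and strandedness: not given in the sources used here. RSEM divides ambiguous reads between genes, so 22.9% to 32.8% of the values above 0 in a library were not whole. All 6 columns were used. Symbols came from GENCODE vM39, where 502 of 57132 identifiers had no match.

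Expected counts were rounded, filtered with filterByExpr, scaled by TMM and tested across all genes with edgeR 4.0.16 (glmQLFit, robust, and glmQLFTest; R 4.3.3, adjusted p under 0.05), 3 libraries against 3. An exact permutation test of 3 against 3 cannot give a p under 0.1, so single values have none. The fit was tested on simulated data, where it missed part of the changed genes and called some unchanged ones. A lack of calls therefore does not show a lack of change. Alternatives were DESeq2 1.42.0, limma 3.58.1 (voom), RLE factors, library totals, no filter, a filter at 10 CPM, removal of length trends, thinning of 100Q replicate 3, and each library left out. Named genes were the 3 highest and the lowest per length of each complex, the smallest p in each direction, fixed core subunits and isoform families, and all members whose groups did not overlap. Members and lists were chosen with earlier results of these data known. One member is counted but not reported by name here.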

Additional observations from a re-analysis of the deposited data

How the results depend on the processing

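Depth limits the rarer members: 3 counts are 0.155 to 0.816 CPM, and Cox7a1 had an SE of 0.79. No alternative called a member. The number of genes called was 0 under every alternative that kept all libraries, and 0 to 2 with 1 library left out (2 without 0Q replicate 1, 1 without 0Q replicate 2). The members' median log2 fold change was -0.09 to -0.02 under the alternatives with all libraries and -0.12 to -0.02 with 1 left out. Leaving out 1 library gave medians of -0.12 to -0.03 in complex I, -0.18 to -0.01 in complex II, -0.1017 to 0.02473 in complex III, -0.14 to -0.04 in complex IV and -0.12 to -0.00094 in complex V; the last was -0.0095 with length trends removed. The 100Q minus 0Q share of counts was -0.06 percentage points, and -0.09 to -0.02 with 1 library left out. Median levels per length with the longest coding transcript were 174, 164, 155, 369 and 528 in complexes I to V, and with the canonical transcript, a length chosen after seeing the data, 178, 118, 112, 706 and 437. With the replicate number as a block (replicate block), the members' median was -0.07, 0 genes were called and 421 rather than 309 had an unadjusted p under 0.05; it changed no call. The deviations of same-numbered libraries from their group means correlated at 0.03, 0.19 and -0.07. With means over only 3 libraries, these values cannot settle whether same-numbered libraries share an animal or a plating. The labels do not say.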
